A study of Mus musculus with 4 samples.

Results

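The genes described here are the chaperones, disulfide isomerases, stress sensors, transcription factors and degradation factors of the endoplasmic reticulum (ER). They were chosen as a list of 36 gene symbols, and each of the 36 matched 1 row of a count table of 39056 genes. Of these, 35 were measured, which means at least 1 CPM (reads after scaling of each library to the same total) in at least 1 library, and 11803 genes of the whole table were measured by the same rule. The remaining member, Derl3, had 0 reads in all 4 libraries, and 3 reads, the most that a count of 0 allows, would be 0.108 CPM at 20 h.

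The samples were 4 libraries of polyadenylated RNA from lungs of S1PR1-GFP reporter mice, which mark cells that express the sphingosine-1-phosphate receptor S1PR1 with green fluorescent protein. The labels give 1 library with no LPS and 1 each at 8, 16 and 20 h of LPS (lipopolysaccharide, the endotoxin of Gram-negative bacteria) at 10 mg/kg into the peritoneum, and all 4 libraries carry the reporter allele and the same sort. The sort took GFP-positive, CD31-positive and CD45-negative cells, and the labels name them S1PR1+ endothelial cells, so the sample selects on the reporter and cannot speak for other cells of the lung. The labels do not say how many animals a library holds, nor the age or strain of the mice, and the listed hours can be read as times after injection or times of injection.

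The labelled cell type did not match its markers. Of 10 endothelial marker genes 1 was measured, Egfl7, and Erg, Emcn and Cldn5 had 0 reads in all 4 libraries, while Pecam1, which encodes CD31, had 7 reads in the library with no LPS, then 2, 2 and 1 over the LPS hours. The summed level of the 10 markers was 4.39, 5.33, 5.05 and 4.23 CPM, and values given 4 at a time below follow this order (no LPS, 8, 16 and 20 h). Library totals were 27566454 to 28905776 reads. The libraries labelled 8 h and 16 h were close to each other, with a chi-square per gene of 1.57, where counting error alone would give about 1. The value was 6.93 between those labelled 20 h and no LPS and 70.5 to 75.8 for the other 4 pairs. With 1 library per label no difference between labels has a replicate check, and each hour below names a library. In RNA from a pool of cells, fewer cells of a type and less RNA per cell cannot be told apart.

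The ER folds proteins that a cell secretes or places in its membranes. The chaperone BiP, encoded by Hspa5, binds unfolded chains, lectin chaperones hold sugar-bearing chains, and disulfide isomerases with their oxidases form disulfide bonds. When unfolded protein accumulates, the sensors IRE1, PERK and ATF6 start the unfolded protein response: IRE1 splices Xbp1 mRNA, PERK slows translation through eIF2 and induces ATF4 and CHOP, and cleaved ATF6 moves to the nucleus, and together they raise chaperones and the machinery of ER-associated degradation. Endothelial and other secretory lung cells use this machinery for matrix and secreted proteins.

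The promoters of the members are shown for Hspa5, the most read member, and for the 4 members that differed from the library with no LPS by 1.5-fold or more. Sequences run from 250 bases before to 50 bases after the annotated start, 5′ to 3′ on the gene's strand, and are RefSeq's for build GRCm38.p6. Capitals mark the fixed letters of an ER stress response element (ERSE, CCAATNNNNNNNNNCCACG) or of its variant ERSE-II (ATTGGNCCACG), on either strand. The windows are chr2:34771840-34772139 (plus strand) for Hspa5, chr12:44210019-44210318 (minus strand) for Dnajb9, chr14:45318523-45318822 (minus strand) for Ero1l, chr13:12565633-12565932 (plus strand) for Ero1lb and chr8:94386179-94386478 (plus strand) for Herpud1.
Hspa5: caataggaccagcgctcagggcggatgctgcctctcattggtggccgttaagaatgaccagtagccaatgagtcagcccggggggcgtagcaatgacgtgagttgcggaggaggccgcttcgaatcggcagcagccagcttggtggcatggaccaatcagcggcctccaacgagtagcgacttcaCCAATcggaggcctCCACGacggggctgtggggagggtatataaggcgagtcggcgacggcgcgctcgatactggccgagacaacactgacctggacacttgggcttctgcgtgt
Dnajb9: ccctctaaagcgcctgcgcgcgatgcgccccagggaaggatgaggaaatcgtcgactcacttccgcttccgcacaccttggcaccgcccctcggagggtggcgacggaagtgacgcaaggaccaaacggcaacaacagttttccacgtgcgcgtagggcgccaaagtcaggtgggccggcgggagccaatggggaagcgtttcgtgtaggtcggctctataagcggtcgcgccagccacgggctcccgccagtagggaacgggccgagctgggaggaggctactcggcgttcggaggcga
Ero1l: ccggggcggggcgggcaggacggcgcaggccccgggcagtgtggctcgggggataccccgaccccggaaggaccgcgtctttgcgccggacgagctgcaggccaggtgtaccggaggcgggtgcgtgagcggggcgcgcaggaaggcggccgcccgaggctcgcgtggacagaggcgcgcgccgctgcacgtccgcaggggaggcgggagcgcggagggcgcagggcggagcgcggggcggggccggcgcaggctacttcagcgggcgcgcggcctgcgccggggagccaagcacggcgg
Ero1lb: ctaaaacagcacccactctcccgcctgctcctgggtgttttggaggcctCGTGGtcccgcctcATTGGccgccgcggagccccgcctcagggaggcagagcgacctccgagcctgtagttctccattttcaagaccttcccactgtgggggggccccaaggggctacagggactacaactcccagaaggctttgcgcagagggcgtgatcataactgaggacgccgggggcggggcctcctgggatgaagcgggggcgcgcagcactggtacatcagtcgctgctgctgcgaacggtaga
Herpud1: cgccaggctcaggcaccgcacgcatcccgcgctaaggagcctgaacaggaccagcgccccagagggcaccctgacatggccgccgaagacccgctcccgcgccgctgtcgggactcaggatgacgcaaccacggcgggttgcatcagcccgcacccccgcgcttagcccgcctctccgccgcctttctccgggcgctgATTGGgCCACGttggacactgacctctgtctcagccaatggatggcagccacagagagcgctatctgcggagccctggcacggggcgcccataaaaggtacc

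A promoter was found for 30 of the 36 members; Atf6, Hyou1, Sec61a1, Manf, Derl1 and Ppp1r15b had none in the table. The ERSE was in promoters of 10 of these 30 members and in 0.119% of 32851 promoters of the same length. Its letters were first described from promoters of chaperone genes, so their presence in chaperone genes is no independent result. The 10 were Hspa5, Hsp90b1, Calr, Canx, Pdia6, Dnajc3, Creld2, Ero1lb, Syvn1 and Derl3. The match in Hspa5 began 65 bases before the RefSeq start and that in Syvn1 began 44 bases before it. Hsp90b1 held 2 matches, beginning 212 and 107 bases before its RefSeq start. The gene span of Hspa5 printed below begins at 34771970, upstream of its match. ERSE-II was in 2 members, Herpud1 and Dnajb11, and in 0.0365% of all promoters, and it was first described in the human counterpart of Herpud1. The half-palindrome UPRE (TGACGTGG), in 0.676% of promoters, and the ATF4-type element CARE (TGATGNAAT), in 0.965%, were in 0 of the 30 members. The promoters of Dnajb9 and Ero1l held no match to any of the 4 motifs on either strand of this window. The windows follow RefSeq's starts, which differ from the ends of the gene spans printed below. All of the Dnajb9 window lies inside its gene span, which runs to 44210326. Most of the Ero1l window lies inside its span, which runs to 45318771. Sequence further upstream of these 2 genes was not searched. A match here describes letters, not a bound site.

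The ER folding genes were highly expressed in every library. The summed share of the 36 genes in all reads was 3.59% without LPS (exact binomial 95% interval 3.58 to 3.60) and 3.43%, 3.44% and 3.51% at 8, 16 and 20 h. Hspa5 (chromosome 2, 34771970 to 34777547, plus strand, mm10) was the most read gene of the whole table in the libraries labelled no LPS, 8 h and 16 h, with 222674, 258220 and 253329 reads, and mt-Co1 with 218012 reads passed its 210999 reads at 20 h. Per kb of exon, Hspa5 was the highest member, at 1863, 2127, 2162 and 1802 CPM per kb over the 4 libraries. Hsp90b1 followed at 1447, 1565, 1559 and 1375 CPM per kb, then Calr at 1284, 1187, 1179 and 1248 CPM per kb. The lowest of the 35 was Ero1lb, at 8.04, 5.06, 5.16 and 8.39 CPM per kb. The median member stood at 73.1, 61.3, 60.4 and 69.6 CPM per kb, against medians of 7.79, 7.69, 7.71 and 7.90 CPM per kb over all measured genes. At least 34 of the 35 measured members lay above the median gene in each library, and 30, 26, 26 and 30 of them lay among the top 10% of measured genes.

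**Figure D1:**
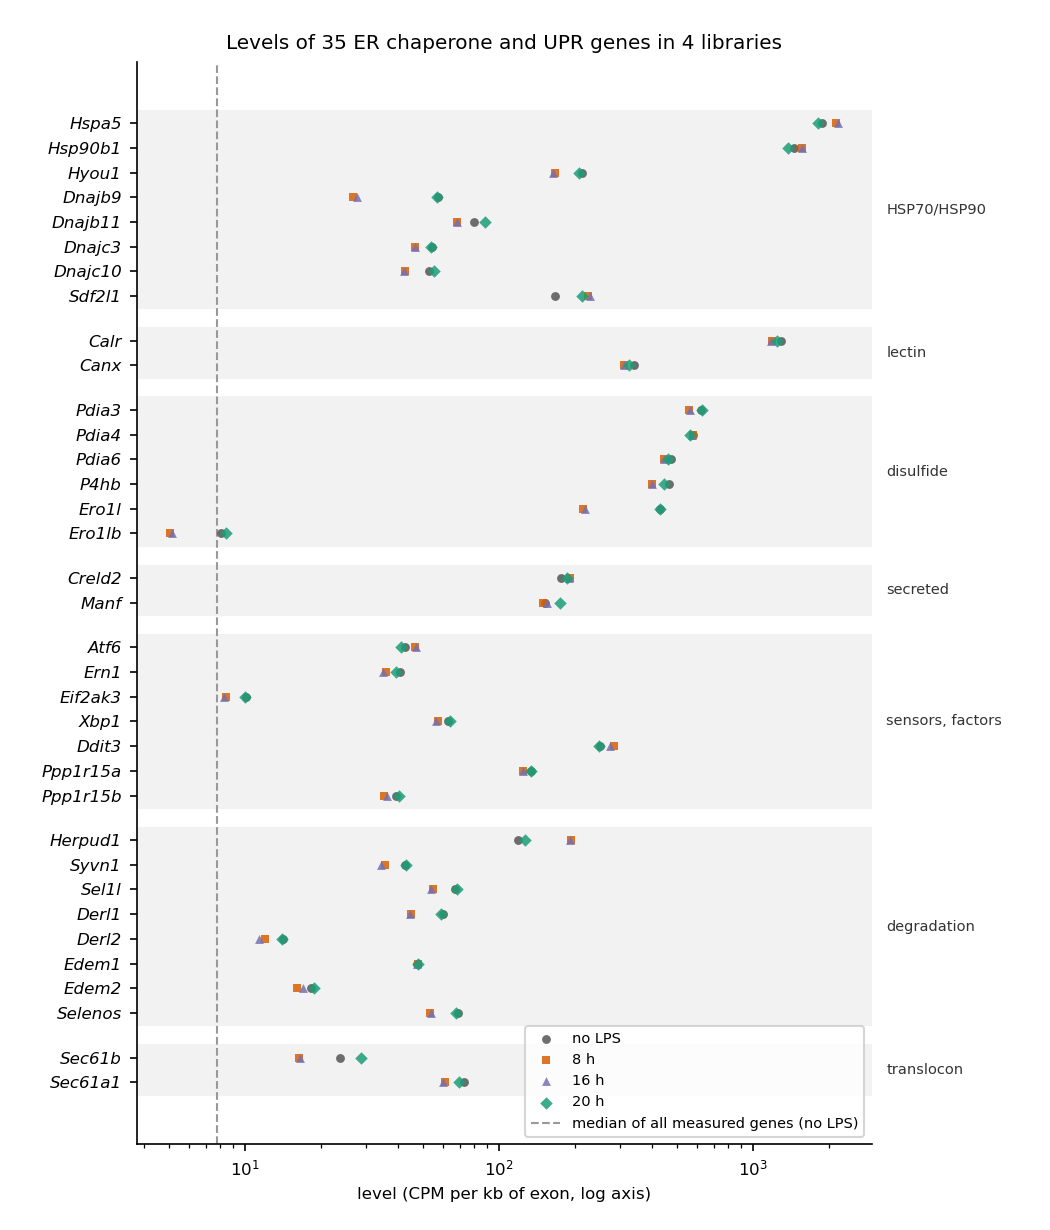
Level of each of the 35 measured ER genes in the 4 libraries, in CPM per kb of exon on a log axis, grouped by role; each point is 1 library and the dashed line is the median of all measured genes with no LPS. Hspa5, Hsp90b1 and Calr lie above 1000 CPM per kb in all 4 libraries, and Ero1lb is the lowest.

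Differences between libraries were read with a rule of size. A gene was called higher or lower where the fold was at least 2, its exact 95% counting interval excluded 1 and the higher library held at least 1 CPM. A second rule used a fold of 1.5. The intervals cover counting error only. At 8 h against no LPS, 2 of 35 measured members were called at 2-fold, both lower, where 8.31% of all measured genes were called. At 1.5-fold 1 member was higher and 3 were lower, against 10.4% of all measured genes higher, 9.41% lower and 19.9% in either direction. At 16 h, 1 of 35 was lower at 2-fold (8.23% of all genes called), and at 1.5-fold 1 was higher and 3 were lower (10.6% of all genes higher, 9.40% lower, 20.0% in all). At 20 h, 0 of 35 were called by either rule, where 0.652% and 2.0% of all genes were called. With 35 members, the shares called at 8 h and 16 h are near or under the background and are no result about the list. The comparisons share the library with no LPS.

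The called members were the oxidases and a co-chaperone on the lower side and a degradation gene on the higher side. Dnajb9 (chromosome 12, 44205559 to 44210326, minus strand) encodes ERdj4, a J-domain co-chaperone of BiP that also restrains IRE1. Its level was 146 CPM without LPS, then 68.0, 70.5 and 145 CPM at 8, 16 and 20 h, so the 8 h and 16 h libraries were low and the other two close to each other. Dnajb9 was 2.15-fold lower at 8 h (95% counting interval 2.04 to 2.27) and 2.07-fold lower at 16 h (1.96 to 2.19), while the 20 h library stood at 0.992 times the library with no LPS (0.950 to 1.04).

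Ero1l (chromosome 14, 45283087 to 45318771, minus strand) encodes the oxidase ERO1-alpha, which recharges protein disulfide isomerase. Its level was 2283, 1135, 1149 and 2282 CPM in the 4 libraries. Ero1l was 2.01-fold lower at 8 h (1.99 to 2.04) and 1.99-fold lower at 16 h (1.96 to 2.01), so it sat on the 2-fold threshold, and its call at 16 h came with the 1.5-fold rule. With library size and with upper quartile scaling Ero1l was called at 2-fold at 16 h as well (2.01-fold and 2.0-fold lower). Its paralogue Ero1lb (chromosome 13, 12565874 to 12611396, plus strand), encoding ERO1-beta, stood at 53.5, 33.7, 34.3 and 55.8 CPM in the same order. Ero1lb was 1.59-fold lower at 8 h (1.46 to 1.72) and 1.56-fold lower at 16 h (1.44 to 1.69), by the 1.5-fold rule, and stood at 1.04-fold at 20 h (0.972 to 1.12). Both oxidase genes had their low values in the same libraries as Dnajb9.

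Herpud1 (chromosome 8, 94386438 to 94395377, plus strand) encodes a membrane protein that organises the HRD1 degradation complex, and it was the 1 member called higher. Its level was 278 CPM without LPS, 449 and 445 CPM in the libraries labelled 8 h and 16 h, and 295 CPM in that labelled 20 h. Herpud1 was 1.62-fold higher at 8 h (1.57 to 1.66) and 1.60-fold higher at 16 h (1.56 to 1.65), by the 1.5-fold rule, and stood at 1.06-fold at 20 h (1.03 to 1.10). The ERSE-II match printed above begins 52 bases before its RefSeq start.

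**Figure D2:**
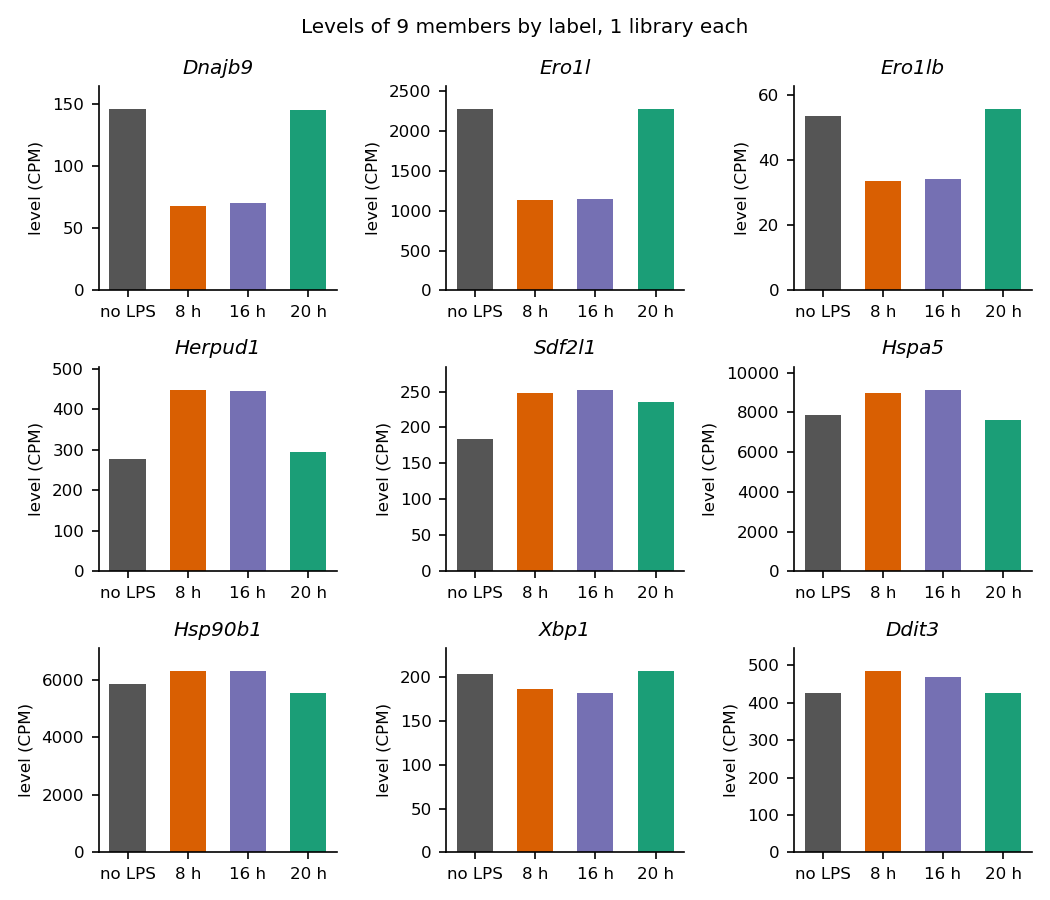
Level in CPM of 9 ER genes in the 4 libraries, 1 bar per library and a separate axis from 0 for each gene. Dnajb9, Ero1l and Ero1lb are low and Herpud1 is high in the libraries labelled 8 h and 16 h, and the 20 h bars stand close to those with no LPS for these 4 genes.

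Among the HSP70 and HSP90 chaperones, 7 of 8 were not called at either fold against no LPS. Hspa5 stood at 7879, 8995, 9143 and 7619 CPM over the 4 libraries, which is 1.14-fold at 8 h (1.14 to 1.15), 1.16-fold at 16 h (1.15 to 1.17) and 0.967-fold at 20 h (0.961 to 0.973). Hsp90b1, encoding the ER HSP90 protein GRP94, stood at 5835, 6310, 6287 and 5543 CPM, or 1.08-fold (1.07 to 1.09), 1.08-fold and 0.950-fold at 8, 16 and 20 h. Both had larger values at 8 h and 16 h than in the other libraries. Hyou1, the large HSP70 that exchanges nucleotide on BiP, stood the other way, at 1536, 1206, 1176 and 1490 CPM (0.785-fold at 8 h, 0.774 to 0.796). The co-chaperone genes Dnajb11, Dnajc3 and Dnajc10 lay between 0.799-fold and 0.860-fold at 8 h and 16 h, and between 0.986-fold and 1.11-fold at 20 h. Sdf2l1, which works with Dnajb11 on BiP, had 184, 248, 253 and 235 CPM, or 1.35-fold at 8 h (1.30 to 1.40), 1.38-fold at 16 h and 1.28-fold at 20 h (1.24 to 1.33). Of the 35 members Sdf2l1 had the largest ratio at 20 h, below the 1.5-fold rule.

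The lectin chaperones and isomerases varied little. Calr, encoding calreticulin, stood at 3698, 3418, 3395 and 3593 CPM, and Canx, encoding its membrane relative calnexin, at 1600, 1462, 1462 and 1529 CPM. Folds of both lay between 0.914 and 0.972 in the 3 comparisons, with 0.924 for Calr (0.916 to 0.933) and 0.914 for Canx (0.901 to 0.926) at 8 h. The isomerase genes Pdia3, Pdia4, Pdia6 and P4hb lay between 0.853-fold and 1.01-fold, with Pdia4 at 1392, 1388, 1379 and 1350 CPM the most even. As a group the disulfide isomerases and oxidases held 0.887%, 0.708%, 0.712% and 0.872% of reads, while the HSP70 and HSP90 group held 1.65%, 1.74%, 1.75% and 1.60%. The secreted factors Creld2 and Manf were not called: Creld2 ranged from 239 to 261 CPM, and Manf, whose product binds BiP and is secreted under ER stress, had 533, 525, 543 and 614 CPM (1.15-fold at 20 h, 1.13 to 1.18). Manf shares annotated exon sequence with Rbm15b on the same strand and with Dcaf1 on the other, and the use of strand in counting is not stated in the labels.

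None of the 7 sensor and signalling genes was called in the 3 comparisons with no LPS. Atf6 (chromosome 1, 170704674 to 170867771, minus strand) stood at 394, 430, 435 and 379 CPM, or 1.09-fold at 8 h (1.06 to 1.12), 1.10-fold at 16 h and 0.961-fold at 20 h. Ern1, which encodes IRE1-alpha, stood at 332, 294, 286 and 323 CPM (0.887-fold at 8 h, 0.861 to 0.914), and Eif2ak3, which encodes PERK, at 61.1, 50.8, 49.7 and 60.3 CPM (0.831-fold, 0.775 to 0.892). Of these 3 sensor genes Atf6 was above and the other two below the library with no LPS at 8 h. Xbp1 (chromosome 11, 5520659 to 5525893, plus strand), the substrate of IRE1, stood at 204, 187, 183 and 208 CPM, or 0.919-fold (0.885 to 0.954), 0.896-fold and 1.02-fold. Gene counts do not separate spliced from unspliced Xbp1. Ddit3, which encodes CHOP, stood at 427, 486, 469 and 426 CPM (1.14-fold at 8 h, 1.11 to 1.17; 0.999-fold at 20 h), and its exons overlap those of Mars on the opposite strand and of a second annotated gene of the same name, which is not analysed here. The eIF2 phosphatase subunit genes Ppp1r15a and Ppp1r15b lay between 0.902-fold and 1.03-fold.

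**Figure D3:**
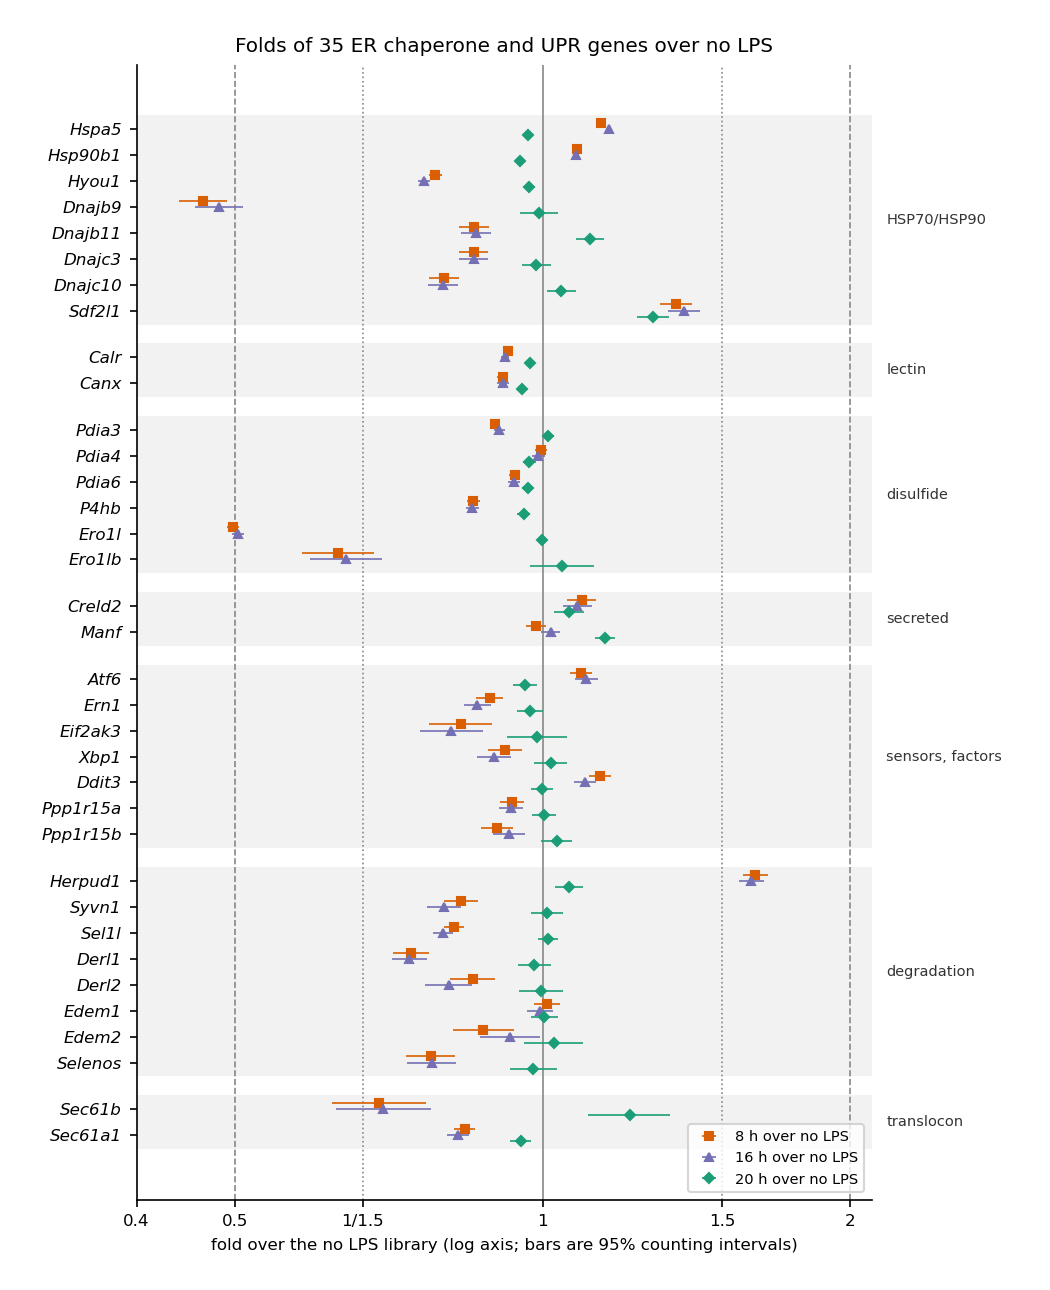
Fold of each of the 35 measured ER genes over the library with no LPS, on a log axis, for the libraries labelled 8 h, 16 h and 20 h; bars are 95% counting intervals, dotted lines mark 1.5-fold and dashed lines 2-fold. At 8 h and 16 h, 27 of the 35 genes lie left of 1, and Dnajb9, Ero1l, Ero1lb and Herpud1 lie past a dotted line; at 20 h all 35 lie inside the dotted lines.

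In the degradation machinery, 7 of the 8 measured genes were not called. Sel1l and Syvn1, which encode the adaptor and the ubiquitin ligase of the HRD1 complex, stood at 576, 472, 460 and 583 CPM and at 208, 173, 166 and 210 CPM (0.819-fold and 0.832-fold at 8 h). Derl1, which encodes a channel protein for retrotranslocation, stood at 0.743-fold at 8 h (0.714 to 0.774), Derl2 at 0.854-fold and the selenoprotein gene Selenos at 0.777-fold. The mannosidase-like gene Edem1, whose product marks glycoproteins for degradation, differed least, at 307, 311, 306 and 309 CPM. The translocon genes Sec61a1 and Sec61b were not called against no LPS. Sec61b was the second lowest member in CPM after Derl3, at 30.0, 20.8, 21.0 and 36.5 CPM, or 0.691-fold at 8 h (0.621 to 0.768), 0.698-fold at 16 h and 1.22-fold at 20 h (1.11 to 1.33).

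The median log2 ratio of the 35 measured members was -0.17 at 8 h, -0.16 at 16 h and -0.00 at 20 h, against 0.00, 0.01 and -0.00 over all measured genes. At 8 h and at 16 h 27 members lay below 0, and at 20 h 19. The measured members with an ERSE or ERSE-II match (11) had median log2 ratios of -0.11, -0.12 and -0.02 at 8, 16 and 20 h, and the 18 with a promoter and no such match -0.21, -0.22 and 0.00. The median level of the 11 was 175, 192, 191 and 186 CPM per kb, and that of the 18 was 65, 54.4, 53.8 and 65.8 CPM per kb. These are descriptions, with no test.

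Between the LPS libraries, 0 of 35 members were called at 16 h against 8 h by either rule, where 0.237% of all genes were called at 2-fold and 0.779% at 1.5-fold. Ratios there ran from 0.948-fold for Derl2 to 1.06-fold for Edem2. At 20 h against 16 h, 1 of 35 was called at 2-fold (8.47% of all genes), Dnajb9 at 2.06-fold higher (1.95 to 2.17). At 1.5-fold 5 were called (20.7% of all genes): Dnajb9, Ero1l at 1.99-fold (1.96 to 2.01), Sec61b at 1.74-fold (1.57 to 1.93) and Ero1lb at 1.63-fold (1.5 to 1.77) were higher and Herpud1 was 1.51-fold lower (1.47 to 1.55). With library size scaling Herpud1 was 1.49-fold lower and lost this call, and Ero1l was 2.01-fold higher and gained one at 2-fold.

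The one test over samples that the design allows is a straight trend over 0, 8, 16 and 20 h. With edgeR's quasi-likelihood test and Benjamini-Hochberg adjustment, 0 of 11803 genes (0%) and 0 of 35 members passed an adjusted p of 0.05. At an unadjusted p under 0.05 there were 43 genes, 0 of them members, and DESeq2 gave 0 adjusted and 25 unadjusted. Without the 20 h library the unadjusted edgeR count was 2110 of 11716 genes and 6 of 35 members. Without the library with no LPS it was 540 of 11721 genes and 2 of 35 members. In both runs the share of members was near that of all genes, so these counts are no result about the list. The lowest adjusted p of a member was 0.9999, with 2 residual degrees of freedom. A straight line does not describe members that differ at 8 h and 16 h and stand near the library with no LPS at 20 h.

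Other genes of the ER were described from 9 lists of 142 genes, of which 137 were measured. At 8 h, 2 were higher and 10 lower at 1.5-fold, and 1 was higher and 2 were lower at 2-fold, and the 16 h library gave equal counts. Over all measured genes 19.9% and 20.0% were called at 1.5-fold at 8 h and 16 h, and 8.31% and 8.23% at 2-fold. The listed genes were called in a smaller share, and the difference was not tested. At 20 h 2 were higher and 1 was lower at 1.5-fold, near the 2.0% called over all genes. Their median log2 ratios were -0.14, -0.15 and -0.00 at 8, 16 and 20 h.

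Collagen folding and modification held 6 of the 12 genes called at 8 h, with 5 of 14 lower and 1 higher at 1.5-fold. Over all measured genes 9.41% were lower and 10.4% higher. With 14 genes, and lists chosen with earlier results of these data known, these counts are no result about the list. Its median log2 ratios were -0.22, -0.26 and 0.04 at 8, 16 and 20 h. The prolyl 4-hydroxylase gene P4ha1, whose product uses P4hb as its partner subunit, stood at 775, 474, 480 and 797 CPM over the 4 libraries, a fold of 0.612 at 8 h (0.599 to 0.625). The prolyl 3-hydroxylase gene P3h1 stood at 67.0, 40.0, 39.8 and 68.7 CPM, and P3h4, Plod1 (a lysyl hydroxylase) and Mia3 (the collagen export receptor TANGO1) were the other lower genes. P4ha3 was 8.64-fold higher at 8 h (4.33 to 19.6) but at only 2.75 CPM, against 0.318 CPM with no LPS. The libraries with fewer reads of the lower genes also had fewer of the collagen gene Col3a1: 2349 and 2305 reads at 8 h and 16 h, against 4505 reads at 20 h and 4735 without LPS. The collagen genes Col1a1 (2, 3, 4 and 0 reads) and Col1a2 (0, 0, 1 and 0 reads) were near absent in all 4 libraries. Of 9 fibroblast markers 4 were measured; the summed level of the 9 was 422, 326, 335 and 414 CPM, with Tcf21 at 0 in all 4. Col3a1 (168, 81.8, 83.2 and 163 CPM) and Dcn (9.48, 2.96, 3.43 and 7.73 CPM) were lower at 8 h and 16 h, while Prrx1 (210.1, 209.0, 213.3 and 210.9 CPM) and Pdgfra (34.1, 31.4, 34.4 and 31.8 CPM) were not called. The part of these markers in the differences was not tested.

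**Figure D4:**
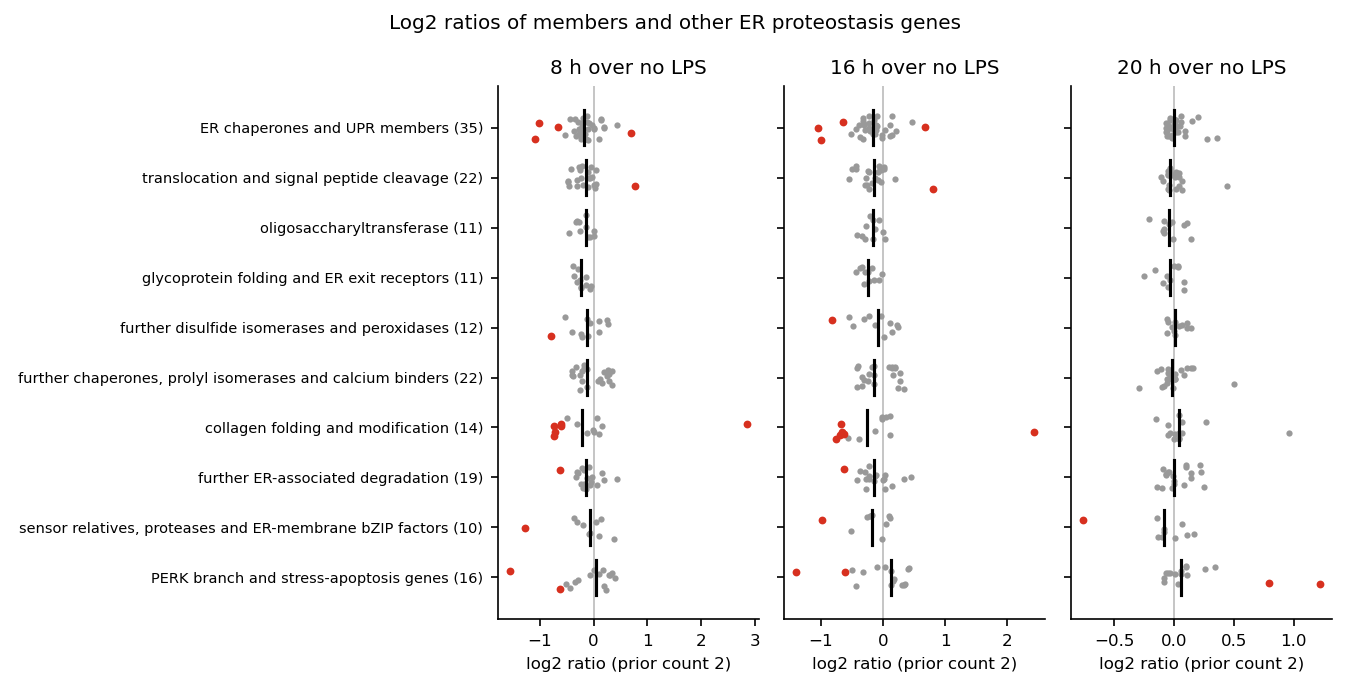
Log2 ratio over the library with no LPS of each measured gene in the ER list and in 9 further lists, for the libraries labelled 8 h, 16 h and 20 h; each point is a gene, red points were called at 1.5-fold, black bars are list medians, and the 3 panels have different axes. At 8 h and 16 h the medians of 8 of the 9 further lists lie below 0, and the collagen list holds the most red points.

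In the remaining lists the calls were few. The counts are by the 1.5-fold rule and were equal at 8 h and 16 h. Over all measured genes 10.4% were higher and 9.41% lower at 8 h, and 10.6% and 9.40% at 16 h. With 10 to 22 genes per list, these counts are no result about a list. Translocation and signal peptide cleavage had 1 of 22 higher, Tram2, at 37.7, 64.6, 65.5 and 36.5 CPM (1.72-fold at 8 h, 1.59 to 1.85), with the signal sequence receptor gene Ssr2 at 0.717-fold and the SRP receptor gene Srpr at 0.719-fold, not called. The further isomerases had 1 of 12 lower, the thioredoxin-like membrane protein gene Tmx3, at 194, 112, 110 and 187 CPM (0.576-fold at 8 h, 0.551 to 0.602), and Tmx1 stood at 0.694-fold. Further degradation genes had 1 of 19 lower, Os9, which encodes a lectin of the HRD1 complex, at 148, 96.2, 96.4 and 144 CPM (0.648-fold, 0.618 to 0.681). The oligosaccharyltransferase had 0 of 11 called, with Ostc at 0.728-fold at 8 h, glycoprotein folding and ER exit 0 of 11, with the cargo receptor gene Lman1 at 0.766-fold, and the further chaperones 0 of 22, with Rcn1 at 0.751-fold. The ER-membrane factors had 1 of 10 lower, Creb3l1, at 1.70, 0.662, 0.830 and 0.975 CPM, which was also the 1 gene of the 9 lists called lower at 20 h.

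The PERK branch and stress-apoptosis list had 2 of 16 lower at 8 h and at 16 h and 2 of 16 higher at 20 h, by the 1.5-fold rule. Over all measured genes 9.41% and 9.40% were lower at 8 h and 16 h and 2.0% were called in either direction at 20 h, and with 16 genes these counts are no result about the list. The transcription factor gene Atf5 stood at 50.4, 17.0, 19.2 and 60.5 CPM, and was lower at 2-fold at 8 h (0.337-fold, 0.304 to 0.374) and at 16 h. Nupr1, a stress-induced chromatin gene, was lower at 1.5-fold (0.649-fold at 8 h). The genes called at 20 h were Cebpb, which encodes a partner of CHOP, at 20.1, 15.7, 22.0 and 46.9 CPM (2.33-fold at 20 h, 2.11 to 2.58), and Bbc3, which encodes the BH3-only protein PUMA, at 19.3, 21.8, 25.5 and 33.3 CPM (1.73-fold, 1.55 to 1.92). Ddit3 itself stood at 0.999-fold at 20 h (0.974 to 1.02).

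Markers of other cells and of RNA source were read beside these values, and their part in the member ratios was not tested. Mitochondrially encoded transcripts made up 1.80%, 1.36%, 1.40% and 1.90% of reads, so this share was low in the libraries in which Dnajb9, Ero1l and Ero1lb were low. Of the 13 genes 7 were measured, and mt-Nd3, mt-Nd4l, mt-Co2, mt-Co3 and mt-Atp6 were listed at 0 in all 4 libraries. The share is thus that of the genes with counts, and not of all mitochondrial RNA. At 8 h the 7 measured genes ran from 0.343-fold for mt-Nd6 and 0.560-fold for mt-Nd1 to 0.897-fold for mt-Nd5 and 0.912-fold for mt-Co1. Of 8 macrophage markers 7 were measured, with a summed level of 156, 132, 129 and 162 CPM. By the 1.5-fold rule Adgre1 (12, 31, 77 and 24 reads) was higher at 8 h and 16 h, Mertk was higher at 8 h, Csf1r was higher at 16 h, and Cd68 (99.7, 66.5, 62.0 and 96.6 CPM) was lower at 16 h. Leukocyte markers, with 5 of 6 measured, summed to 8.85, 8.01, 8.66 and 9.10 CPM. Alveolar type 2 markers, with 2 of 7 measured and Sftpb at 0 in all 4 libraries, summed to 138, 158, 156 and 143 CPM. Nearly all of that sum was Etv5 (98.7, 106, 103 and 102 CPM) and Abca3 (38.7, 51.4, 52.0 and 40.1 CPM). The surfactant gene Sftpc had 0, 1, 0 and 1 reads. Smooth muscle markers, with 1 of 5 measured, summed to 2.58, 2.19, 3.25 and 2.13 CPM. Of 10 markers of plasma cells, which carry abundant ER, Sdc1 and Prdm1 were measured, and Igkc, Ighm and Tnfrsf17 had 0 reads in all 4 libraries. The summed level of the 10 was 111, 150, 153 and 118 CPM, and Sdc1, a gene also expressed by epithelial cells, gave 3080 of its 3140 reads without LPS. Prdm1 (35, 22, 19 and 33 reads) was lower at 16 h by the 1.5-fold rule.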

How the data were processed

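Polyadenylated RNA was sequenced from sorted cells of mouse lung, with 4 libraries in all. The deposited table holds read counts per gene, made by the authors with STAR and featureCounts on mm10, per the submitters' processing notes; tool versions, annotation, use of strand and handling of shared reads are not stated there or in the labels. Columns were matched to samples by title. Symbols and coordinates (counted from 1) came from GENCODE M21 of the same build, by gene identifier (99.5% of 39056 matched).

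TMM factors from edgeR (version 4.0.16) scaled the counts. Folds carry exact conditional binomial (Clopper-Pearson) 95% intervals, log2 ratios a prior count of 2. Without molecular identifiers, intervals and floors cover counting error only. The trend used glmQLFit and glmQLFTest over all measured genes; DESeq2 (version 1.42.0) was an alternative. Exons of 13 members overlap those of another annotated gene, and their counts may be shared. Both the rule of size and the trend were run on simulated data as a check of the code. The simulated counts held counting error only for the rule of size, and straight slopes with a small spread for the trend. They do not show how either behaves on libraries that differ as these do. Given in every library are the members called in a comparison with no LPS and, always, Hspa5, Hsp90b1, Calr, Canx, Xbp1, Atf6, Ern1, Eif2ak3, Ddit3 and Herpud1, and in each further list up to 3 genes with the largest ratios; any other gene was named with its values in view. The members and lists were chosen with earlier results of these data known.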

Additional observations from a re-analysis of the deposited data

How the results depend on the processing

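The counts of called members and the ratios of 13 named members were recomputed with scaling by library size, DESeq2 size factors and upper quartiles, prior counts of 0.5 and 10, no CPM minimum or one of 10 CPM, and a stricter counting interval; centring on the median of all measured genes was chosen after seeing the data. Of 100 recomputed counts, 97 stayed within 1.5 times their value. Members called at 2-fold at 16 h against no LPS numbered 2 with library size and with upper quartile scaling, and those at 20 h against 16 h numbered 2 with library size scaling, against 1 in each case; the added gene was Ero1l, whose fold lies beside 2. Members called at 1.5-fold at 20 h against 16 h numbered 4 with library size scaling, against 5, and the call lost was that of Herpud1. Of 351 recomputed ratios, 20 moved beyond their counting interval, and the largest move was 0.03 on the log2 scale. In 3 the sign changed, all at 20 h, none called and none above 0.03 in size: Xbp1 with upper quartile scaling, and Ero1l and Ddit3 with centring. In the trend, 0 members passed an adjusted p of 0.05 under any setting run. Leaving out 1 library at a time, still with a fitted spread but 1 residual degree of freedom, the edgeR count stayed at 0, and the lowest adjusted p of a member was 0.239 without the 20 h library and 0.784 without the library with no LPS. No paired analysis was possible because each label has 1 library. The 35 measured members had at least 581 reads in each library, so counting error is small, and the spread between animals is not measured.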
